A study of Mus musculus with 18 samples.

Results

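The 8 genes described here are the core of the PI3K-AKT signaling route: the catalytic subunits Pik3ca and Pik3cb, the regulatory subunit Pik3r1, the kinases Akt1 and Akt2, the lipid phosphatase Inpp4b, and the insulin receptor substrates Irs1 and Irs2. They were taken by gene symbol, 8 of the 55450 genes in the tables, and all 8 passed the filter on low counts that left 18475 genes. RNA was sequenced from 18 mammary tumors, each from its own mouse per the series design. By genotype label, 14 tumors were Cbfb(het), 1 was Cbfb(homo) and 3 were Cbfb(wt), and every one of the 18 also carried MMTV-Cre(+) and Pikca(H1047R, het), as the labels spell it. Cbfb encodes the partner that stabilizes RUNX transcription factors on DNA. The MMTV promoter drives Cre recombinase mainly in mammary epithelium. The labels do not say where in the genome the Pik3ca H1047R allele lies, nor which part of Cbfb was altered, and give no age. There was no tumor without the mutant allele, so the values below describe differences among Pik3ca-mutant tumors and not an effect of the mutation.

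Class IA PI3K is a pair of proteins, a catalytic subunit held and restrained by a regulatory subunit. Receptor tyrosine kinases recruit it directly or through adaptors such as IRS1 and IRS2, and it phosphorylates a membrane lipid, to which AKT kinases are drawn and switched on. Lipid phosphatases such as INPP4B remove phosphates from these lipids, and active AKT keeps FOXO transcription factors out of the nucleus, which in many tissues limits the RNA of receptors and adaptors upstream. The H1047R change in PIK3CA is among the most frequent mutations of human breast cancer and raises the activity of the enzyme. It lies in the last coding exon. The reference sequence around the codon of the H1047R change in the transcript Pik3ca-201, in exon 20 of 20 at chr3:32462733-32462795 of GRCm38 on the + strand, is shown to mark the altered residue, with the histidine codon of the normal gene in capitals.
Pik3ca, codon of H1047R: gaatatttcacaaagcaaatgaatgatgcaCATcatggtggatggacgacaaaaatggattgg
The deposited tables give 1 value per gene, so they do not separate mutant from normal Pik3ca transcripts.

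Libraries held 33210207 to 40974130 rounded expected counts, so depth differed little between tumors. Cbfb had 12.8, 27.9 and 71.1 TPM (lowest, median, highest) in Cbfb(het) tumors, 10.8 TPM in the Cbfb(homo) tumor and 12, 22.1 and 35.6 TPM in Cbfb(wt) tumors, so its level did not sort the labels beyond the Cbfb(homo) tumor having the lowest value. TPM is a level scaled by gene length and to a fixed total in each library. The label of mammary tumor was set against 14 epithelial markers, whose mean log2 CPM, the log2 of counts scaled to library size, is called the epithelial score. It was 7.36 to 8.27 in 13 tumors, but 5.48 in Cbfb(het) 12, 4.61 in Cbfb(het) 1, 4.23 in both Cbfb(het) 10 and Cbfb(het) 14, and 2.27 in Cbfb(wt) 2. Epcam, an adhesion protein of epithelial cells, was at 331 TPM or more in the 13 tumors and at 5.6 to 133 TPM in the other 5. It is 1 of the 14 markers, so it is not a separate check of the score. The 5 tumors of low score are called epithelial-low below, and the other 13 epithelial-high. The dividing score of 6.5 was set after the values were seen. In bulk RNA, fewer cells of a type and less RNA per cell cannot be told apart. Cbfb(het) 10 and Cbfb(het) 14 were nearly alike (r = 0.994 over genes, against at most 0.978 for any other pair of the 18 libraries), yet differed by more than counting noise, with a chi-square of 4.22 per degree of freedom. They were kept as 2 tumors, as the design describes them. Whether they share a source was not tested. The Cbfb comparison, the epithelial score and the correlations were also run without both. No such run was made by name for the other marker scores, where the 2 tumors farthest from the median score were left out.

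Among the catalytic subunits, Pik3ca was the major RNA in each of the 18 tumors. Pik3ca (chr3:32397671-32468486, + strand, GRCm38) had 26.9, 41.6 and 60.7 TPM (lowest, median, highest) in Cbfb(het) tumors, 50.7 TPM in the Cbfb(homo) tumor, and 67.7, 68.1 and 40.7 TPM in Cbfb(wt) tumors 1, 2 and 3. The pair of highest values were both in Cbfb(wt) tumors, while the third Cbfb(wt) tumor lay below the Cbfb(het) median, so the groups overlapped. Pik3cb (chr9:99036654-99140621, - strand), which encodes the isoform used by many G-protein-coupled receptors, had 4.43, 11.1 and 29.7 TPM in Cbfb(het) tumors, 10.3 TPM in the Cbfb(homo) tumor, and 13.3, 7.80 and 23.5 TPM in the Cbfb(wt) tumors. Its lowest values were 4.43 TPM in Cbfb(het) 14 and 4.69 TPM in Cbfb(het) 10. Pik3ca exceeded Pik3cb in 18 of 18 tumors, by 1.77 ± 0.96 (SD, n = 18) in log2(TPM + 0.1), with a two-sided sign-flip permutation p of 3.33e-05 adjusted over the 5 within-tumor comparisons. The margin ran between 1.47-fold in Cbfb(het) 13 and 12.9-fold in Cbfb(het) 10. Of the summed TPM of the class IA catalytic genes Pik3ca, Pik3cb and Pik3cd, Pik3ca made up 52.2% to 83.5%. Pik3cd, the isoform of leukocytes, made up 10% to 24.2% in the epithelial-low tumors and 4.06% to 16% in the epithelial-high ones.

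The regulatory subunit Pik3r1 exceeded Pik3ca in most tumors and had the largest SD of log2 CPM of the 8 members. Pik3r1 (chr13:101680563-101768217, - strand) encodes the p85alpha protein and shorter forms, which stabilize the catalytic subunit and hold it in check until a receptor is engaged. It had 31.0, 125 and 285 TPM in Cbfb(het) tumors, 178 TPM in the Cbfb(homo) tumor, and 222, 32.9 and 271 TPM in Cbfb(wt) tumors 1, 2 and 3. The 2 lowest tumors, Cbfb(het) 1 and Cbfb(wt) 2, carried different labels, and both were epithelial-low. Pik3r1 exceeded Pik3ca in 16 of 18 tumors, and Pik3ca minus Pik3r1 averaged -1.57 ± 1.07 (SD, n = 18) in log2(TPM + 0.1), with an adjusted sign-flip permutation p of 0.000112. The exceptions were the same 2 tumors: Pik3ca had 51.6 TPM against 31.0 TPM of Pik3r1 in Cbfb(het) 1, and 68.1 TPM against 32.9 TPM in Cbfb(wt) 2. Over the regulatory genes Pik3r1, Pik3r2 and Pik3r3, Pik3r1 supplied 29.3% to 50.9% of the TPM in the 5 epithelial-low tumors and 68.9% to 84.5% in the 13 epithelial-high tumors. These ranges do not touch, but how many other genes or ratios separate the same groups was not counted. By edgeR, 40.2% of all genes tested passed with the epithelial score. Pik3r2, which encodes p85beta, moved the other way, with 51.3 to 132 TPM in the epithelial-low tumors and 20.5 to 54.3 TPM in the epithelial-high tumors. The summed regulatory RNA was 1.15 to 5.54 times the summed catalytic RNA, above 1 in 18 of 18 tumors and lowest in Cbfb(wt) 2.

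**Figure D1:**
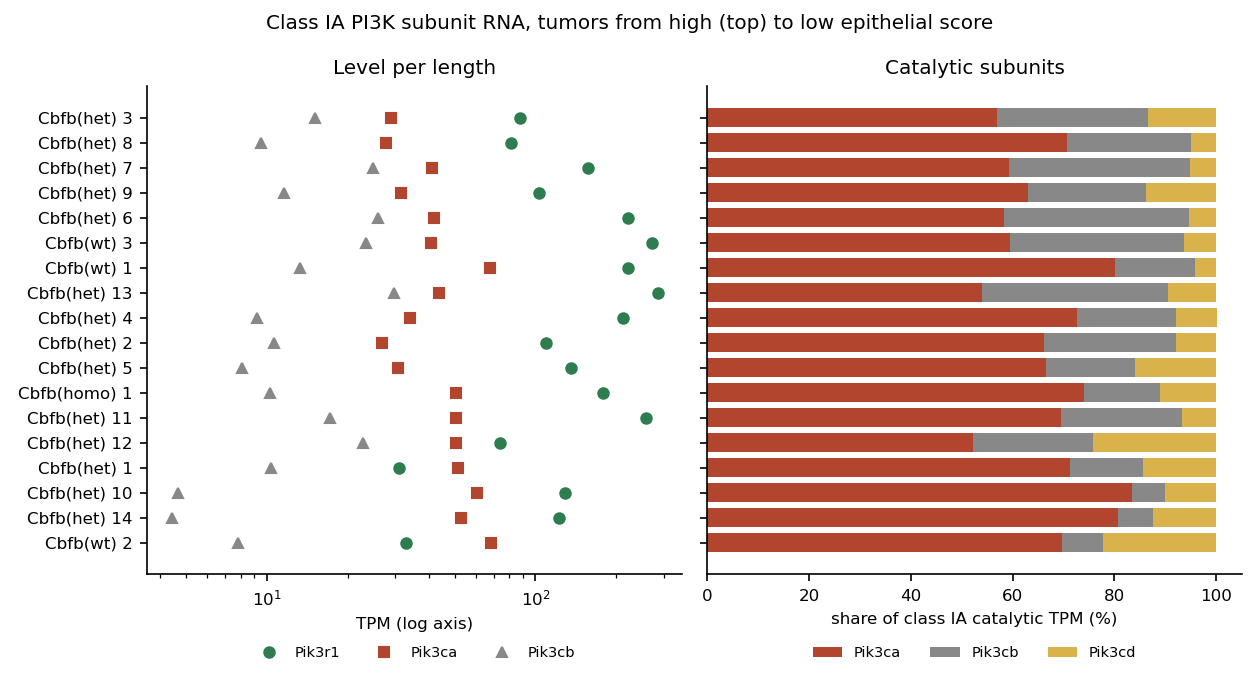
Left, TPM on a log axis of Pik3r1 (circles), Pik3ca (squares) and Pik3cb (triangles) in each tumor, ordered by epithelial score with the highest at the top; right, the share of each class IA catalytic gene in their summed TPM. Pik3ca lay right of Pik3cb in all 18 tumors, and Pik3r1 lay left of Pik3ca only in Cbfb(het) 1 and Cbfb(wt) 2.

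The AKT genes had the smallest SD of log2 CPM of the 8 members. Akt1 (chr12:112653821-112674884, - strand) and Akt2 (chr7:27591552-27640826, + strand) encode related kinases, of which AKT2 is best known for insulin-stimulated glucose uptake and AKT1 for growth and survival. Akt1 had 90.9, 124 and 210.5 TPM in Cbfb(het) tumors, 136 TPM in the Cbfb(homo) tumor, and 140.2, 199.6 and 130.0 TPM in Cbfb(wt) tumors. Akt2 had 33.5, 61.8 and 74.0 TPM in Cbfb(het) tumors, 61.3 TPM in the Cbfb(homo) tumor, and 68.8, 69.8 and 48.1 TPM in Cbfb(wt) tumors. The labels overlapped for both genes, and Akt1 reached its 3 highest values in the epithelial-low tumors Cbfb(het) 12, Cbfb(wt) 2 and Cbfb(het) 1. Akt1 exceeded Akt2 in 18 of 18 tumors, by 1.20 ± 0.30 (SD, n = 18) in log2(TPM + 0.1), with an adjusted sign-flip permutation p of 3.33e-05. The SD of log2 CPM over the 18 tumors was 0.19 for Akt2 and 0.21 for Akt1. Of the 18475 genes tested, 1.63% had a smaller SD than Akt2 and 3.04% a smaller SD than Akt1. Pik3ca had an SD of 0.32, with 16.5% of genes below it. The other 5 members lay near or above the median SD of all genes, 0.62: Irs2 had 0.57, Inpp4b 0.76, Pik3cb 0.79, Irs1 0.80 and Pik3r1 0.88. Low-count genes vary more by counting alone, and Inpp4b rested on as few as 97 counts in a tumor, against at least 3277 for Pik3ca.

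Inpp4b had the lowest median TPM of the 8 members. Inpp4b (chr8:81342556-82127914, + strand) encodes a phosphatase that acts after PI3K on a product of its lipid and is regarded as a tumor suppressor in breast epithelium. It had 0.40, 1.46 and 3.39 TPM in Cbfb(het) tumors, 1.62 TPM in the Cbfb(homo) tumor, and 3.81, 2.69 and 0.88 TPM in Cbfb(wt) tumors. Both its highest value and one of its low values came from Cbfb(wt) tumors. The 5 epithelial-low tumors had 3.51 to 3.56 log2 CPM and 2.2 to 3.39 TPM of Inpp4b, and the 13 epithelial-high tumors 1.36 to 4.14 log2 CPM and 0.40 to 3.81 TPM.

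Irs1 and Irs2, the adaptors that pass insulin and IGF1 receptor signals to PI3K, were expressed at similar low levels per length. Irs1 (chr1:82233101-82291416, - strand) had 1.32, 8.05 and 12.4 TPM in Cbfb(het) tumors, 7.23 TPM in the Cbfb(homo) tumor, and 5.67, 2.94 and 9.66 TPM in Cbfb(wt) tumors. Irs2 (chr8:10984681-11008458, - strand) had 4.41, 8.05 and 16.7 TPM in Cbfb(het) tumors, 4.22 TPM in the Cbfb(homo) tumor, and 8.63, 6.32 and 7.78 TPM in Cbfb(wt) tumors. Irs1 was lowest in Cbfb(het) 1 and Cbfb(wt) 2, the tumors in which Pik3r1 was also lowest, and Irs2 was lowest in the Cbfb(homo) tumor. Irs1 exceeded Irs2 in 7 of 18 tumors, and the difference averaged -0.35 ± 0.67 (SD, n = 18) in log2(TPM + 0.1), with an adjusted sign-flip permutation p of 0.0402. This call was lost without any one of Cbfb(het) 1, 2, 3, 6, 7, 8, 12 and 13 and Cbfb(wt) 1 and 2, with adjusted permutation p up to 0.0817, and within the 13 epithelial-high tumors, at 0.0882. The receptors above them stood at comparable levels: Insr had 4.33 to 11.7 TPM and Igf1r 1.97 to 13 TPM over the 18 tumors.

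The promoters of both adaptor genes held the sequence CACGTG, an E-box, within the 250 bases before to 50 bases after the RefSeq start on GRCm38.p6. They are shown because both adaptor genes held a match, with the E-box in capitals. A role of the E-box in feedback was not tested.
Irs1 chr1:82291530-82291569 (- strand, E-box 115 bases before the start): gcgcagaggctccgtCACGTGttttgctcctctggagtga
Irs2 chr8:11008949-11008988 (- strand, E-box 44 bases before the start): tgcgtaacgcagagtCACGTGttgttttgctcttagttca
CACGTG reads the same on both strands, occurred in 7.15% of 32851 promoter windows, and was looked for after these promoters had been seen. The FOXO-type motif TGTTTAC, searched on both strands, occurred in 3.65% of windows and among the members only in 1 of 2 Akt1 windows, 161 bases before the start. The RefSeq starts of both genes lie outside the GENCODE gene spans given above. A match is a description of the sequence and not evidence of binding.

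**Figure D2:**
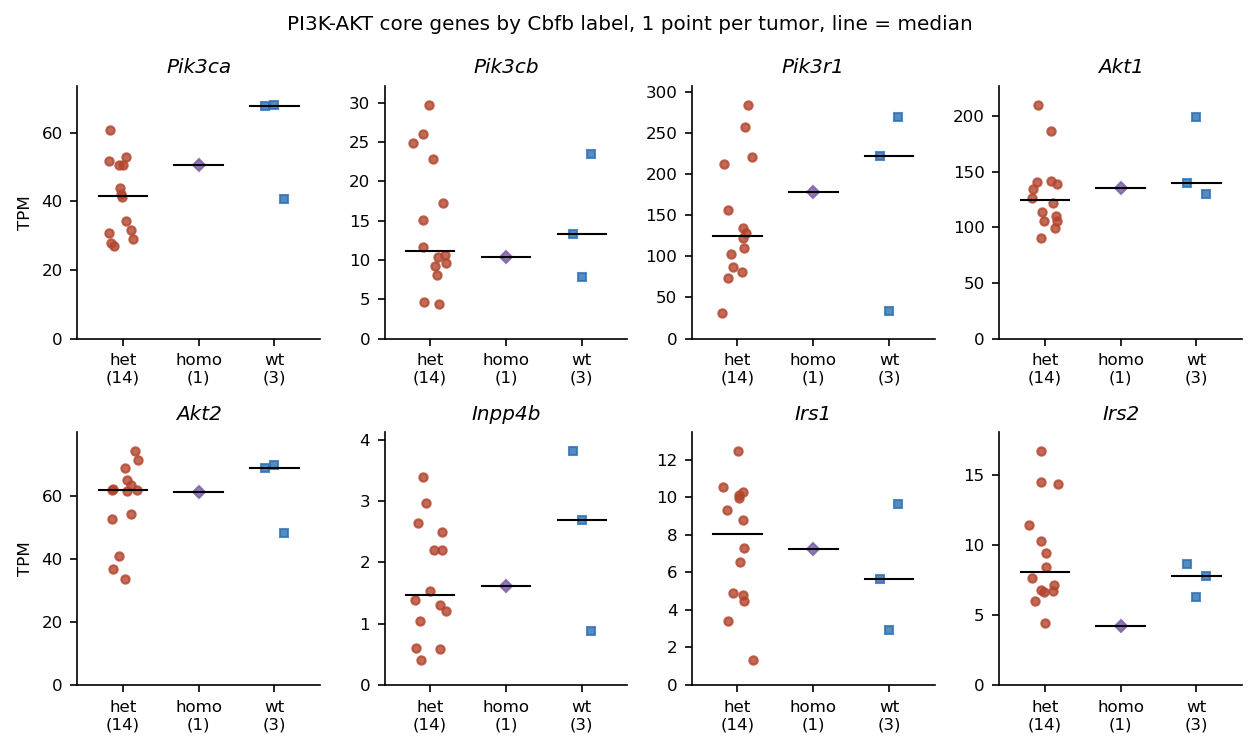
TPM of the 8 members in each tumor, with 14 Cbfb(het) tumors left, 1 Cbfb(homo) tumor in the middle and 3 Cbfb(wt) tumors right; each point is 1 tumor and each line a group median. The Cbfb(het) and Cbfb(wt) tumors overlapped for each of the 8 genes, and Irs2 was lowest in the Cbfb(homo) tumor, at 4.22 TPM.

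The first comparison asked whether the Cbfb label went with the level of these genes. With edgeR's quasi-likelihood test, no member differed between Cbfb(het) and Cbfb(wt) tumors, and neither did any gene: 0 of 18475 (0%) passed an adjusted p of 0.05, and 623 (3.37%) had an unadjusted p under 0.05. DESeq2 called 0 genes (932 under 0.05 before adjustment), as did limma-voom (487 before adjustment). Among the members the smallest p was that of Pik3ca, whose log2 fold change of Cbfb(het) over Cbfb(wt) was -0.36 ± 0.20 (SE), with p = 0.0842 and an adjusted p of 0.999 by edgeR. Irs2 had 0.49 ± 0.31 (SE, p = 0.142 before adjustment by edgeR), Irs1 0.43 ± 0.46 and Inpp4b -0.42 ± 0.45. Pik3cb (0.12 ± 0.48), Akt2 (0.07 ± 0.15), Akt1 (-0.05 ± 0.16) and Pik3r1 (-0.06 ± 0.50) lay close to 0. Leaving out 1 tumor turned the sign of each of these 4, and that of Inpp4b to 0.06 without Cbfb(wt) 1. Within the epithelial-high tumors and with the epithelial score as a covariate, Pik3cb was below 0 and Akt1 above 0.

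The rest of the pathway gave no call either. Of 81 tested genes in 5 lists, 0 passed in either direction with edgeR, and only Tsc2, a brake on mTOR, had an unadjusted p under 0.05 (log2 fold change -0.49 ± 0.21, p = 0.0335 before adjustment, adjusted p = 0.999). The median log2 fold change was -0.11 over 11 other PI3K subunits, -0.10 over 14 phosphatases and other brakes, -0.02 over 19 kinases and targets downstream, -0.05 over 19 receptors and adaptors, and 0.06 over 18 FOXO factors and target genes, beside 0.03 over all genes and 0.01 over the 8 members. The members with the smallest p of the other lists were Pik3c2g (2.06 ± 1.46), a class II PI3K, Pdpk1 (-0.30 ± 0.19), the kinase that phosphorylates AKT, the receptor Met (-0.61 ± 0.31) and Foxo6 (1.13 ± 0.55). With 3 Cbfb(wt) tumors the comparison was coarse: on simulated counts of the same design, 10% of genes changed 2-fold and 56% of genes changed 4-fold were called. The changed genes were a random draw and not the members, so these shares do not apply to a given member. The SE of the members ran between 0.15 for Akt2 and 0.50 for Pik3r1.

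The single Cbfb(homo) tumor allowed no test. Its level of Irs2, 4.09 log2 CPM, was the lowest of the 18, just under the 4.22 of Cbfb(het) 1, while its Pik3r1 ranked 7th from the top and its Pik3ca and Akt2 each 11th. The other members of this tumor lay inside the range of the other 17.

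The second comparison asked how the members moved with the epithelial score. Pik3r1 and Pik3cb rose with the score, and Pik3ca and Akt1 fell. By edgeR over all 18 tumors, the log2 slope per SD of the score was 0.62 ± 0.15 (SE) for Pik3r1, with an adjusted p of 0.00343, and 0.54 ± 0.14 for Pik3cb, with an adjusted p of 0.0051. Pik3ca had -0.22 ± 0.06 with an adjusted p of 0.00669, and Akt1 -0.13 ± 0.05 with an adjusted p of 0.0367, both by edgeR. So 4 of 8 members passed, against 40.2% of all genes tested (19.7% higher and 20.5% lower with the score), and the share among members is near that background. Akt2 (-0.03 ± 0.05), Inpp4b (-0.28 ± 0.16), Irs1 (0.20 ± 0.18) and Irs2 (0.26 ± 0.12) did not pass. Without the 2 tumors farthest from the median score, the calls of Pik3ca (adjusted edgeR p = 0.116), Pik3cb (0.0565) and Akt1 (0.0732) were lost. The call of Akt1 was lost without any one of Cbfb(het) 1, 2, 7, 9, 12 and 13 and Cbfb(wt) 2 and 3, with adjusted edgeR p up to 0.128, while Irs2 passed without Cbfb(het) 12 (adjusted edgeR p = 0.0409) or the Cbfb(homo) tumor (0.0475), and Inpp4b without Cbfb(wt) 1 (0.0488).

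In levels, Pik3r1 was 7 to 8.82 log2 CPM in the 5 epithelial-low tumors, with 7.75 as the median, and 8.51 to 9.90 in the 13 epithelial-high tumors, with 9.31 as the median. Pik3ca was 7.20 to 7.66 log2 CPM in the epithelial-low tumors and 6.49 to 7.41 in the epithelial-high tumors. Akt1 was 7.76 to 8.29 log2 CPM in the epithelial-low tumors and 7.56 to 8.01 in the epithelial-high tumors. The ranges overlap for each of the 3. For Pik3cb, the epithelial-low tumors themselves were split, with 4.05 and 4.18 log2 CPM in the nearly alike Cbfb(het) 14 and Cbfb(het) 10 and 6.09 in Cbfb(het) 12. Without those alike tumors the slope of Pik3cb was 0.41 with an adjusted edgeR p of 0.0529. Within the 13 epithelial-high tumors 0 of 8 members passed, beside 1087 of all genes, and the slope of Pik3r1 turned to -1.24 with an adjusted edgeR p of 0.296, and that of Akt1 to 0.35 with an adjusted edgeR p of 0.513. Pik3ca (slope -0.29, adjusted edgeR p = 0.774) and Pik3cb (adjusted edgeR p = 0.187) kept the sign they had over 18 tumors.

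**Figure D3:**
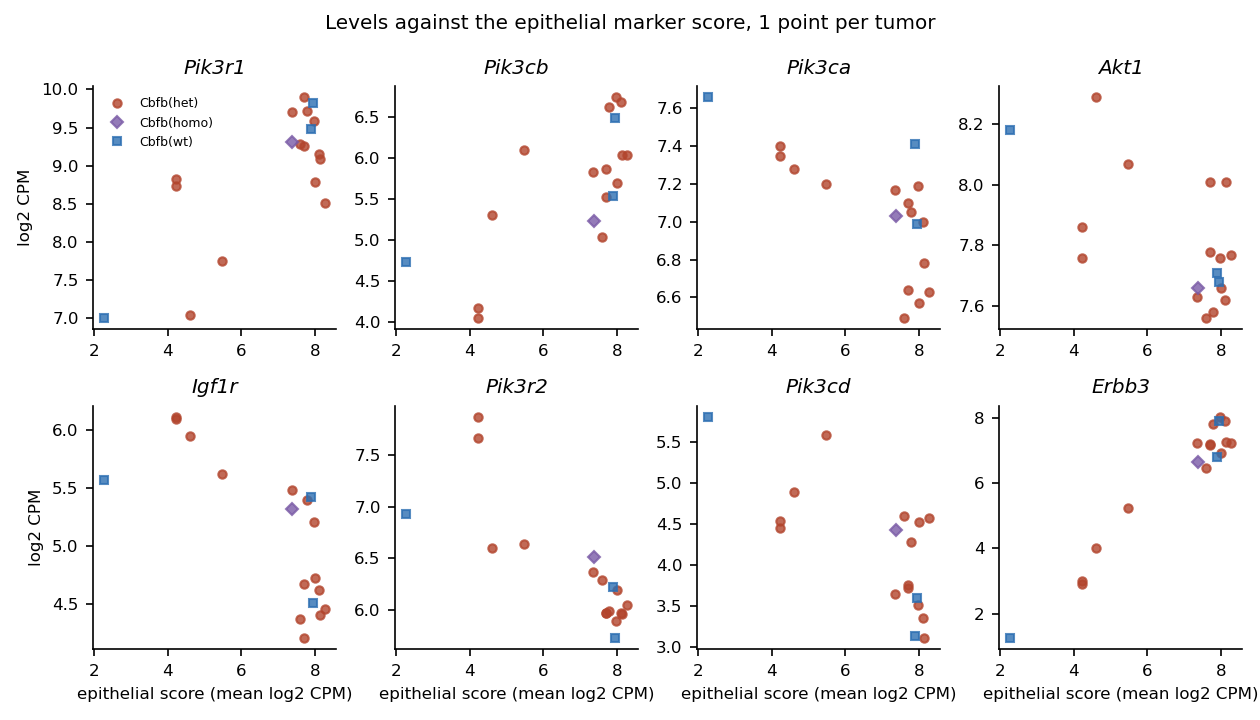
Level in log2 CPM against the epithelial score for 4 members (top) and 4 other pathway genes (bottom), 1 point per tumor, with Cbfb(het) as circles, the Cbfb(homo) tumor as a diamond and Cbfb(wt) as squares. The 5 tumors with a score of 5.48 or less stand apart from the 13 at 7.36 or more.

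Several other pathway genes had steeper slopes on the score. Erbb3, the receptor that docks PI3K most directly, had the steepest slope of the always named genes, 1.99 ± 0.14 with an adjusted edgeR p of 2.42e-08, and stood at 0.63 to 11.8 TPM in the epithelial-low tumors and 20.4 to 64.5 TPM in the epithelial-high tumors. Pik3cd fell with the score (-0.55 ± 0.12), as did Pik3r2 (-0.54 ± 0.08) and Igf1r (-0.47 ± 0.10). Igf1r was 7.66 to 13 TPM in the epithelial-low tumors and 1.97 to 7.70 TPM in the epithelial-high tumors. Foxo1 (0.20 ± 0.08) and Foxo3 (0.25 ± 0.08) passed as higher with the score. The call of Foxo3 was lost without the nearly alike Cbfb(het) 10 and 14 (slope 0.21, adjusted edgeR p = 0.0855). Foxo1 had an adjusted edgeR p of 0.0472 that was lost without any one of Cbfb(het) 1, 2, 4, 5, 6, 12, 13 and 14 and Cbfb(wt) 1 and 2, up to 0.175. Insr (0.03 ± 0.07) and Pdpk1 (0.03 ± 0.07) did not pass.

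By list, 14 of 19 receptors and adaptors passed, 6 higher and 8 lower with the score. Erbb2 (0.74), Erbb4 (1.65), Gab1 (0.39), Grb10 (0.34) and Sh2b1 (0.13) were higher with Erbb3. Pdgfra (-1.83), Pdgfrb (-1.56), Fgfr1 (-0.72), Met (-0.32), Grb2 (-0.20), Sh2b2 (-0.63) and Shc1 (-0.43) were lower with Igf1r. Pdgfra and Pdgfrb also belong to the fibroblast list. Among the 11 other PI3K subunits 5 passed, with Pik3c2b higher (0.93) and Pik3cd, Pik3r2, Pik3r5 and Pik3r6 lower. Of 14 brakes 5 passed, with Inpp5j (1.53) and Them4 (0.41) higher, and Tsc1 (-0.38) and Inpp5d (-0.67), the phosphatase SHIP1 of leukocytes, among the 3 that were lower. Of 19 downstream genes 6 passed, 3 each way, and of 18 FOXO factors and targets 8 passed, 6 higher and 2 lower. Over all genes 40.2% passed. The 14 of 19 receptors and adaptors were a larger share than that, and the other lists lay nearer to it. The lists were not tested as sets. The slopes in this paragraph are log2 per SD of the score.

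Of the other scores, the mesenchymal score separated the epithelial-low tumors (6.78 to 7.29) from the epithelial-high tumors (2.82 to 5.75). The fibroblast score was 7.69 to 10.23 in the epithelial-low tumors and 3.95 to 7.74 in the epithelial-high tumors. The leukocyte score split the epithelial-low tumors, with 3.39 in Cbfb(het) 14 and 4.97 in Cbfb(het) 12. The mesenchymal score was 2.87 to 7.08 in Cbfb(het) tumors, 5.75 in the Cbfb(homo) tumor and 2.82 to 7.29 in Cbfb(wt) tumors, and the fibroblast score was 4.46 to 10.23 in Cbfb(het) tumors, 7.53 in the Cbfb(homo) tumor and 3.95 to 9.56 in Cbfb(wt) tumors. Pik3cb and Pik3r1 fell with the mesenchymal score (-0.50 and -0.61 per SD, adjusted edgeR p of 0.00695 and 0.00325), where 38.3% of genes passed, and with the fibroblast score (-0.59 and -0.46, adjusted edgeR p of 0.00189 and 0.0291), where 31% passed. Pik3cb (-0.56) and Irs2 (-0.35) fell with the endothelial score, where 28.5% of genes passed. With the milk score, over caseins and other milk proteins, Pik3cb rose (0.59) and Pik3ca fell (-0.21), where 30.2% passed. Akt1 fell with the squamous score (-0.16), where 15.9% passed. Without the 2 tumors farthest from the median score, the calls of Pik3cb (adjusted edgeR p = 0.0919) and Pik3ca (0.182) with the milk score, of Irs2 with the endothelial score (0.126) and of Akt1 with the squamous score (0.313) were lost, the last also without the filter on low counts (0.0582). No member passed for the leukocyte (6.53% of genes), proliferation (6.84%), muscle (0.714%), basal (0.612%) or adipocyte (0.184%) score. Pik3cb was lowest in the nearly alike Cbfb(het) 10 and 14 (4.18 and 4.05 log2 CPM). No fit on these scores was set up to leave out that pair by name. The part of each cell type in the members' differences was not tested.

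The third comparison asked which members varied together across tumors. Of 28 pairs, 4 passed an adjusted permutation p of 0.05 by Pearson's r, 3 by Spearman's rho and 2 by both. Pik3ca and Inpp4b had r = 0.69 (adjusted permutation p = 0.0172) and rho = 0.76 (adjusted permutation p = 0.019) over 18 tumors, r = 0.75 without the 2 tumors farthest in Pik3ca, and r = 0.62 within the 13 epithelial-high tumors, where the adjusted permutation p was 0.114. Of all other genes, 11.4% were as strongly correlated with Pik3ca as Inpp4b was, and 1.73% as strongly with Inpp4b as Pik3ca was. Pik3cb and Irs2 had r = 0.62 (adjusted permutation p = 0.0442) and rho = 0.71 (adjusted permutation p = 0.0204), r = 0.70 without the 2 farthest tumors, which are the nearly alike Cbfb(het) 10 and 14, and r = 0.63 within the 13. The Pearson call of this pair was lost without any one of Cbfb(het) 1, 2, 6, 7, 9, 11, 12 and 13 and Cbfb(wt) 1 and 2, with adjusted permutation p up to 0.118. The call of Pik3ca and Inpp4b was lost without Cbfb(het) 1, Cbfb(het) 9 or Cbfb(wt) 2, with adjusted permutation p up to 0.0662. An absolute r of 0.62 or more, the smallest among the passing pairs, was reached by 19.4% of genes with Pik3ca, 19.3% with Pik3cb, 18% with Pik3r1, 9.54% with Akt1, 6.01% with Irs1, 5.56% with Inpp4b and 2.7% with Irs2.

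The remaining passing pairs both held Pik3r1. Pik3r1 and Akt1 had r = -0.74 (adjusted permutation p = 0.0172) and rho = -0.56, but r = -0.42 without the tumors Cbfb(het) 1 and Cbfb(wt) 2 and 0.01 within the 13 epithelial-high tumors. Pik3r1 and Irs1 had r = 0.73 (adjusted permutation p = 0.0172) and rho = 0.51, and r = 0.23 without those 2 tumors, yet r = 0.73 within the 13, where the adjusted permutation p was 0.0676. The calls of both pairs were lost without Cbfb(het) 1 (adjusted permutation p = 0.0662 with Akt1 and 0.112 with Irs1) or Cbfb(wt) 2 (0.0727 and 0.0871). The 4 passing pairs became 0 without either of these tumors and 2 without Cbfb(het) 9. Akt2 and Irs1 passed by rho alone (-0.64, adjusted permutation p = 0.0444), with r = -0.55. Irs1 and Irs2 had r = 0.54 with an adjusted permutation p of 0.0905, and passed without the Cbfb(homo) tumor (r = 0.62, adjusted permutation p = 0.036).

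Pik3ca showed no called relation to its partner subunits, to the AKT genes or to the adaptors over 18 tumors in log2 CPM. Its r was -0.35 with Pik3cb, -0.34 with Pik3r1, 0.44 with Akt1, 0.01 with Akt2, -0.19 with Irs1 and -0.20 with Irs2, with adjusted permutation p of 0.236 or more. On log2(TPM + 0.1) and on log2(TPM + 1), Pik3ca with Akt1 passed (r = 0.78, adjusted permutation p = 0.00336). Within the 13 epithelial-high tumors the r of Pik3ca with Pik3r1 was 0.66 (unadjusted permutation p = 0.0139, adjusted 0.0975), opposite in sign to that over all 18. No pair passed within the 13 tumors, where 6 had an unadjusted permutation p under 0.05.

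**Figure D4:**
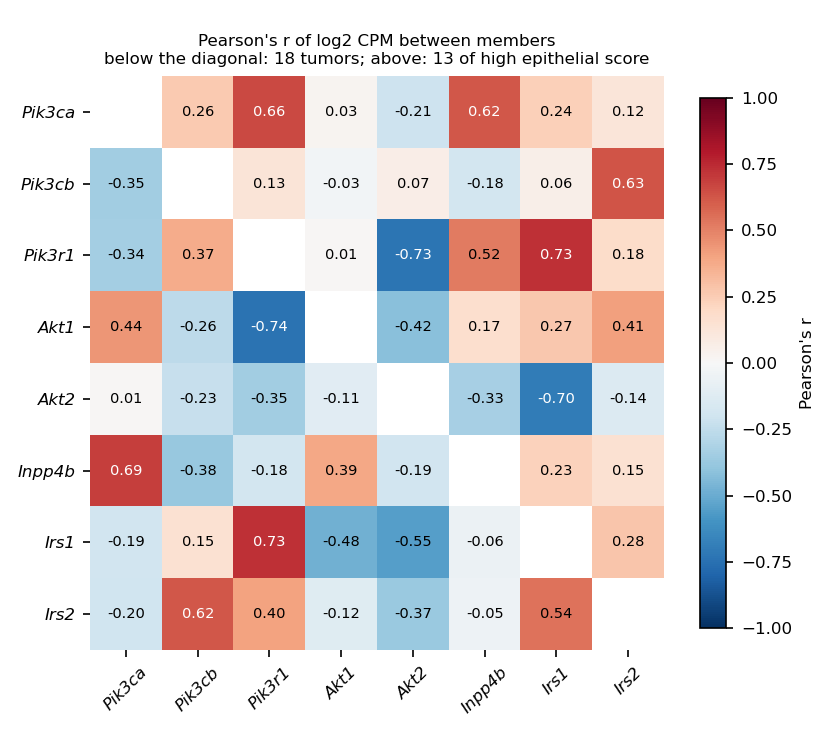
Pearson's r of log2 CPM for the 28 pairs of members, over 18 tumors below the diagonal and over the 13 epithelial-high tumors above it. Pik3ca with Inpp4b (0.69 and 0.62), Pik3cb with Irs2 (0.62 and 0.63) and Pik3r1 with Irs1 (0.73 and 0.73) had like values in both, whereas Pik3r1 with Akt1 (-0.74 and 0.01) and Pik3ca with Pik3r1 (-0.34 and 0.66) did not.

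Pik3ca also moved with a measure of the whole library, the share of counts in 87 ribosomal protein genes, which ran between 3.05% and 7.13% with a median of 3.93%. Pik3ca had r = -0.82 with this share (permutation p = 4e-05, adjusted 0.00128 over 32 relations of 8 members with 4 library measures) and rho = -0.78 (adjusted permutation p = 0.00832). The r was -0.77 without the 2 tumors farthest in the share and -0.81 within the 13 epithelial-high tumors, and 3.13% of genes were as strongly correlated with the share. It was the only relation of the 32 to pass over 18 tumors. Pik3r1 had r = 0.16 with the share over 18 tumors and -0.73 within the 13. Inpp4b had r = -0.61 (adjusted permutation p = 0.111). After a linear fit of each gene on the share, Pik3ca and Inpp4b had r = 0.42 (adjusted permutation p = 0.265), Pik3cb and Irs2 r = 0.61 (adjusted permutation p = 0.0718), and the Pik3r1 pairs kept r of -0.74 with Akt1 and 0.75 with Irs1. The total count per library had r = 0.04 with Pik3ca. Whether the ribosomal share reflects the tumors or the libraries was not tested.

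**Figure D5:**
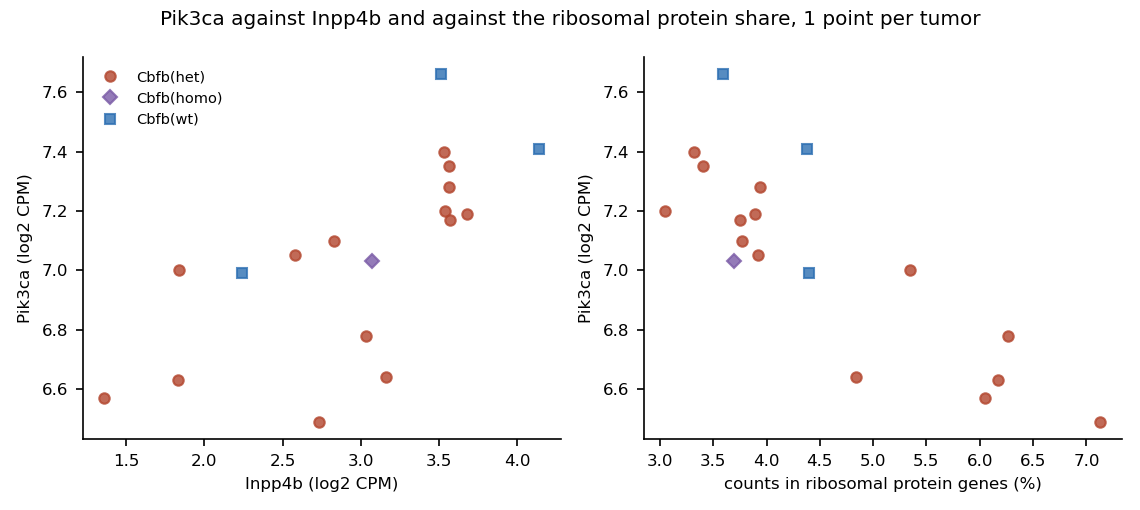
Pik3ca in log2 CPM against Inpp4b in log2 CPM (left) and against the percent of counts in ribosomal protein genes (right), 1 point per tumor, with Cbfb(het) as circles, the Cbfb(homo) tumor as a diamond and Cbfb(wt) as squares. Pik3ca was higher where Inpp4b was higher (r = 0.69) and lower where the ribosomal share was higher (r = -0.82).

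For each member the 3 genes with the most similar log2 CPM over the 18 tumors are given as a description, by Pearson's r. Pik3ca was most like Scaf8 (0.97), Zfp280c (0.94) and Tulp4 (0.94), and these stayed at 0.89 to 0.98 within the 13 epithelial-high tumors. Pik3cb was most like Rexo1 (0.95), Oxsr1 (0.90) and Pdcd6ip (0.90). Pik3r1 was most like Trpm4 (0.94), Ttll10 (0.93) and Mfsd6 (0.93), which fell to 0.52 to 0.59 within the 13. Akt1 was most like Kansl2 (0.90), S1pr2 (0.89) and Plekho2 (0.86), and Akt2 like Mapkapk2 (0.90), Cdk20 (0.89) and Lgals3 (0.86). Inpp4b was most like Gbp2b (0.88), Msh3 (0.84) and Nr3c1 (0.80), the glucocorticoid receptor. Irs1 was most like the zinc finger genes Zfp810 (0.88), Zfp759 (0.86) and Zfp316 (0.85), and Irs2 like Ranbp17 (0.83), Gdf5 (0.80) and Tmod3 (0.79). No member was among the 3 nearest genes of another.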

How the data were processed

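Each tumor has its own gene-level RSEM table, and the authors gave expected counts and TPM in it, per the file headers. The deposited expected counts are not normalized, and 6.2% to 7.19% of them per tumor were not whole, so they were rounded. Per the submitters' processing notes, the tools were RSEM 1.3.1 and STAR 2.7.0f, with the mm10 build. Strand setting and annotation release: not given in the sources used here. Overlapping genes on the same strand could share reads with a member (Pik3ca with Gm37123, Pik3r1 with Gm36638, Akt1 with Mir6939, Inpp4b with Gm17072). Depending on the strand setting, so could genes on the opposite strand (Inpp4b with 4930579O11Rik and Gm17169, Irs1 with Gm9747, Irs2 with 9530052E02Rik). All 55450 gene IDs occur in GENCODE M21, which gave the positions; promoters are RefSeq's, and all 8 members matched.

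Genes were kept with filterByExpr, scaled with TMM and tested with edgeR 4.0.16 in R 4.3.3 (quasi-likelihood, Benjamini-Hochberg over 18475 genes, threshold 0.05). Log2 CPM used a prior count of 2. DESeq2 1.42.0 and limma 3.58.1 were alternatives. A score is the mean log2 CPM of a marker list, fitted as a continuous term over 18 tumors. Correlations and sign-flip tests were two-sided permutation tests with 100000 resamples (scipy 1.17.1), for which p = 1e-05 is the smallest possible. Within-tumor differences used log2(TPM + 0.1), which understates differences of low genes. The edgeR tests of the Cbfb label and of the epithelial score were run on simulated counts, and the permutation tests were not. For the epithelial score, 74% of randomly drawn genes changed 1.5-fold per SD were called. Besides the 8 members, the genes always named were Pik3cd, Pik3r2, Pdpk1, Insr, Igf1r, Erbb3, Foxo1 and Foxo3, the gene of smallest p in each list, and 3 genes nearest each member; other list members were named after their values were seen. The members and lists were chosen with earlier results of these data known. Replicate numbers follow accession order and pair nothing. Per the series design each tumor is from its own mouse; Cbfb(het) 10 and 14 are nearly alike, and a shared source was not tested. Some genes of the lists and 1 of the 5 within-tumor comparisons are not reported here.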

Additional observations from a re-analysis of the deposited data

How the results depend on the processing

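No paired analysis was possible because the labels give each tumor the same repeat number and replicate numbers only name tumors. In the Cbfb comparison the count of called genes stayed at 0 except without the low-count filter, where it was 1; leaving out single tumors gave 0 to 0. The log2 fold changes of members that changed sign were all far from the threshold: Pik3r1 0.19 by limma-voom, Akt2 -0.01 with library size only and -0.13 on both TPM scales, Pik3cb -0.11 on log2(TPM + 0.1), -0.10 on log2(TPM + 1), -0.14 with the epithelial score as a covariate and -0.04 in epithelial-high tumors, and Akt1 0.04 and 0.01 in the last 2 settings. Leaving out single tumors gave ranges of -0.21 to 0.69 for Pik3cb, -0.54 to 0.40 for Pik3r1, -0.13 to 0.13 for Akt1, -0.05 to 0.15 for Akt2 and -0.79 to 0.06 for Inpp4b.

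The count of genes associated with the epithelial score was 6481 to 7514 on leaving out single tumors and 1087 within the epithelial-high tumors. There the slopes of Pik3r1 (-1.24 ± 0.74, SE), Akt1 (0.35 ± 0.32), Akt2 (0.44 ± 0.36), Irs1 (-0.90 ± 0.87) and Foxo1 (-1.06 ± 0.53) changed sign. These slopes are per SD of the score over all 18 tumors, and none of them passed. Without the 2 tumors farthest from the median score, Pik3ca (slope -0.20, adjusted p = 0.116), Pik3cb (0.56, 0.0565) and Akt1 (-0.18, 0.0732) were no longer called by edgeR. Akt1 was also lost without any one of 8 tumors, without the filter (0.124) and with genotype as a term (0.0531), and Foxo1 by limma-voom (0.0501) and with genotype as a term (0.0653). Counts for other scores moved without the 2 farthest tumors to 209 (basal), 3504 (fibroblast), 658 (leukocyte), 52 (muscle), 2624 (milk), 342 (proliferation) and 625 (squamous); without the filter to 224 (basal), 79 (adipocyte) and 219 (muscle); with genotype as a term to 11 (basal) and 22 (adipocyte); and by limma-voom to 59 (adipocyte). Single tumors were left out only for the epithelial score.

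Of the correlations, 7 pairs passed on log2(TPM + 1) and 7 on log2(TPM + 0.1), by r and by rho, 0 in Cbfb(het) tumors alone, 0 in epithelial-high tumors and 2 after the fit on the ribosomal share; single tumors left out gave 0 to 5 pairs by r and 1 to 4 by rho. On TPM, Pik3ca with Akt1 passed (r = 0.78) and Pik3r1 with Akt1 did not (-0.38). The r of Pik3ca with Irs1 changed sign in 5 settings (0.04 and 0.02 on the TPM scales, 0.06 in Cbfb(het) tumors, 0.24 in epithelial-high tumors, 0.03 without the 2 farthest) and lay between -0.29 and 0.00 without single tumors. In epithelial-high tumors the r of Pik3ca also changed sign with Pik3cb (0.26), Pik3r1 (0.66) and Irs2 (0.12), and that of Pik3r1 with Akt1 (0.01). Without single tumors, Pik3ca with Inpp4b ran over 0.63 to 0.75. Irs1 minus Irs2 was -0.31 in epithelial-high tumors and -0.42 to -0.27 without single tumors. The causes were not tested.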
